A study of Mus musculus with 36 samples.

Results

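The genes described are 10 named members of the primitive endoderm and basement membrane programme: the collagen IV chain genes Col4a1 and Col4a2, the laminin chain genes Lama1, Lamb1 and Lamc1, the transcription factor genes Gata4, Gata6, Sox17 and Sox7, and the receptor gene Pdgfra. They were taken by symbol from a list drawn up for this purpose, 10 of the 49671 genes in the deposited count table, and all 10 were among the 23501 genes that passed the filter on low counts. Levels were read in 36 poly(A)-selected, strand-specific RNA-seq libraries of mouse pluripotent cells. The 3 conditional lines, labelled Bod1L, Setd1a and Mll2 (the last targets the gene Kmt2b), each gave knockout (KO) and wild-type (WT) cells, with tamoxifen named for every KO sample and for no WT sample, so that treatment and genotype cannot be told apart. Cells of each genotype were grown in 3 media: naive embryonic stem cells in 2i (LIF with the inhibitors PD0325901 and CT99021), cycling embryonic stem cells in FCS (serum with LIF), and epiblast-like stem cells, titled EpiSC, in Activin A with FGF2. That gives 18 groups of 2 replicates labelled biological. Each line stands for 1 conditional cell line, so the p-values measure the spread between its cultures. Cell type and medium changed together in EpiSC medium.

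Primitive endoderm is the extraembryonic layer that sorts out from the epiblast inside the mouse blastocyst, and it gives rise to visceral and parietal endoderm. FGF signalling turns on GATA6 in the future primitive endoderm, where GATA4, SOX17 and SOX7 follow and the PDGF receptor alpha marks the cells. The layer then secretes a basement membrane, a sheet in which a laminin network (each molecule an alpha, a beta and a gamma chain) and a collagen IV network (its usual molecule holding more Col4a1 than Col4a2 chains) are joined by nidogen and perlecan. Parietal endoderm builds the thick Reichert's membrane from the same parts. The laminin chains of Lama1, Lamb1 and Lamc1 form laminin-111, the main laminin of the early embryo. Mouse embryonic stem cells also express laminin genes without being endoderm, and Sox17, Gata4 and Gata6 return in definitive endoderm.

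On GRCm38, Col4a1 (ENSMUSG00000031502, chr8:11198423-11312826, minus strand) and Col4a2 (ENSMUSG00000031503, chr8:11312805-11449287, plus strand) lie head to head. Their annotated ends overlap by 22 bases, and their first transcribed bases are 21 bases apart. Because these 2 genes were read out of 1 shared stretch of DNA and their levels ran together, both RefSeq promoter windows (GRCm38.p6, 250 bases before to 50 bases after the start, written on the strand of the gene) are shown, with matches to a CCAAT box (CCAAT or ATTGG) and a GC box (GGGCGG or CCGCCC) in capitals. The Col4a1 window is chr8:11312777-11313076 on the minus strand and the Col4a2 window is chr8:11312555-11312854 on the plus strand.
Col4a1: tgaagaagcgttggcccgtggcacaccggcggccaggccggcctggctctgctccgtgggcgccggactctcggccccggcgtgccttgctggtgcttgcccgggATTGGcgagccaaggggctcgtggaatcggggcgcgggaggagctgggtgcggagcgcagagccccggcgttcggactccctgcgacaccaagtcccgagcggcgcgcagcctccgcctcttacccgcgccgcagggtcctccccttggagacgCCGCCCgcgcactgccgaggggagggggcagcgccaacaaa
Col4a2: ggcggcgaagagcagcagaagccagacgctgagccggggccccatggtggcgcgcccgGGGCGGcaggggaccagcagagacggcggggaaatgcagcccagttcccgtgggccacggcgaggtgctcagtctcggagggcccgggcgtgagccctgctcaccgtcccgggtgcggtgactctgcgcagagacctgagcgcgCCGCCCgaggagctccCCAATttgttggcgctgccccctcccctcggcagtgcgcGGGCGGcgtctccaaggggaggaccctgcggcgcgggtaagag
The windows share 78 bases. The GC box at +10 of Col4a1 and that at +8 of Col4a2 are the same site read from opposite strands. Col4a1 held 1 CCAAT match (at -145) and Col4a2 1 (at -32), and Col4a2 held further GC boxes at -192 and -48. A CCAAT match occurred in 37.4% and a GC box in 35.7% of 32851 RefSeq promoter windows of this length. TATAAA, on either strand, was in neither window and in 13.6% of all windows. The G and C content was 74.0% for Col4a1 and 73.7% for Col4a2, against a median of 52.7% over all windows. The table matched 4 of the 10 members (Col4a1, Col4a2, Lamb1 and Pdgfra).

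Depth, in M (mega) gene counts per library, ran from 24.49 to 40.59 (median 32.61). Bod1l stood at 33.6 to 62.2 CPM (counts per M counts of the library, with library sizes scaled by TMM) in the 6 Bod1L KO libraries against 166 to 345 CPM in the WT libraries of that line. Setd1a was still detected in its KO libraries (37.3 to 43.8 CPM, against 40.9 to 58.8 in WT), and so was Kmt2b (113 to 145 CPM in Mll2 KO, against 89.6 to 210 in WT), which neither supports nor contradicts those labels because the deleted part is not given. The library numbers in the file header form a lower series of 23 libraries and a higher series of 13, which held all 12 EpiSC libraries and Setd1a KO 2i replicate 1, so EpiSC medium and number series cannot be told apart. Pou5f1, which marks pluripotent cells, was at 156 to 1544 CPM in all 36 libraries. The 4 EpiSC libraries of the Setd1a line stood apart from the other 8: they held the naive-state genes Zfp42 at 41.4 to 101 CPM (0.0546 to 2.42 CPM in the others) and Esrrb at 104 to 163 CPM (0.737 to 4.65 CPM), and the primed-state gene Fgf5 at 3.92 to 14.8 CPM (35.6 to 270 CPM). These levels are mixed for the epiblast-like label, and EpiSC results are therefore also given line by line. Fibroblast and feeder markers (15 genes, summed) were at 21.5 to 76.6 CPM in 2i, 21.4 to 872 CPM in FCS and 226 to 7413 CPM in EpiSC medium.

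On GRCm38 the other genes lie at chr17:67697265-67822645 (Lama1), chr12:31265234-31329644 (Lamb1), chr1:153218922-153332786 (Lamc1), chr14:63198922-63271692 (Gata4), chr18:11052510-11085635 (Gata6), chr1:4490931-4497354 (Sox17), chr14:63943674-63950732 (Sox7) and chr5:75152292-75198215 (Pdgfra). Lamc1 and Lamb1 were the most abundant of the 10 transcripts and Sox7 and Sox17 the least, as medians over all libraries (the plot of levels by library). Compared per length (RPKM), the median over all 36 libraries was 72.8 for Lamc1, 22.6 for Lamb1, 11.2 for Col4a1, 7.52 for Lama1 and 4.58 for Col4a2. The factors and the receptor followed at 0.851 RPKM for Gata4, 0.499 for Gata6, 0.268 for Pdgfra, 0.169 for Sox7 and 0.106 for Sox17. In WT cells in 2i the order was Lamc1 (81.4 ± 33.7 RPKM, mean ± SD, n = 6), Lama1 (11.6 ± 13.1), Lamb1 (4.51 ± 2.29), Col4a1 (1.22 ± 0.314), Gata4 (0.876 ± 0.280), Col4a2 (0.870 ± 0.245), Gata6 (0.487 ± 0.185), Pdgfra (0.275 ± 0.103), Sox17 (0.164 ± 0.0621) and Sox7 (0.0302 ± 0.0202). In that order Lama1 and Lamb1 overlapped within 1 SD, as did each pair of neighbours from Col4a1 down to Sox17. In EpiSC medium Lamb1 (40.6 ± 9.40 RPKM) and Col4a1 (31.5 ± 9.15) stood next below Lamc1 (64.8 ± 22.4), and each of these neighbours overlapped within 1 SD. Lama1 was then at 2.47 ± 1.32 RPKM, below Col4a2 at 19.6 ± 5.27. The Sox17 mean of 5.35 ± 7.77 RPKM overlapped Lama1 within 1 SD and came from the Mll2 WT libraries (16.4 and 14.3 RPKM). In the Bod1L and Setd1a WT libraries Sox17 was at 0.0343 to 1.24 RPKM, below Lama1 in each.

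**Figure D1:**
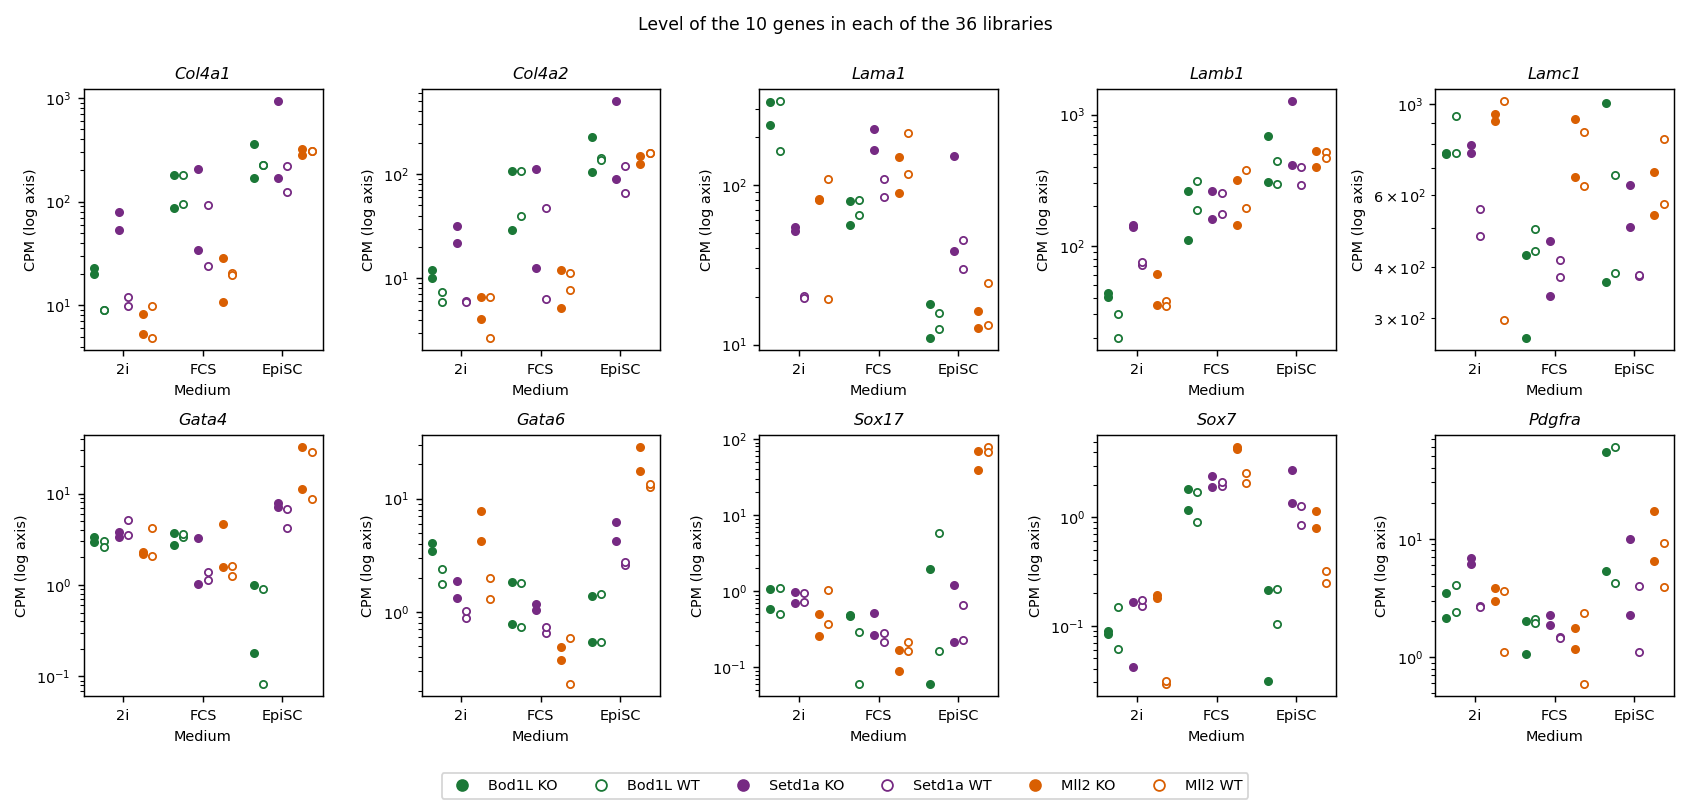
CPM of each of the 10 genes in each of the 36 libraries (1 point per library, log axis, filled for KO, open for WT, colour for line), by medium. Col4a1, Col4a2 and Lamb1 climb over 2i, FCS and EpiSC medium, Lamc1 stays between 268 and 1018 CPM in all 36 libraries, and in EpiSC medium Gata4, Gata6 and Sox17 are highest in the 4 Mll2 libraries.

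Between media, FCS against 2i was a comparison within the lower number series in WT cells, and 6 of the 10 genes were called (4 higher, 2 lower, adjusted p under 0.05), where 27.8% of all 23501 genes were called, 13.3% higher and 14.5% lower. EpiSC against 2i gave 8 calls (7 higher, 1 lower) on a background of 52.5% (25.1% higher, 27.4% lower), and EpiSC against FCS gave 7 (5 higher, 2 lower) on a background of 41.0% (20.4% higher, 20.6% lower). These comparisons share libraries. The members' median log2 fold change was 0.13 for FCS against 2i (-0.02 over all tested genes), 1.85 for EpiSC against 2i (-0.07) and 1.53 for EpiSC against FCS (-0.01). Adjusted p-values are from edgeR's quasi-likelihood test with Benjamini-Hochberg adjustment over all genes, and ± after a log2 fold change is its SE.

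Both collagen IV chain genes were lowest in 2i and highest in EpiSC medium. Col4a1 was at 4.81 to 11.9 CPM in the 6 WT libraries in 2i (median 9.43), 19.4 to 179 CPM in FCS (median 58.2) and 124 to 308 CPM in EpiSC medium (median 224). The 2i libraries lay below every FCS library, and only the FCS and EpiSC ranges overlapped. Its level in FCS was 71.7 ± 63.6 CPM against 9.08 ± 2.34 in 2i (SD, n = 6 each), a log2 fold change of 2.60 ± 0.441 (adjusted p = 0.000115). EpiSC medium exceeded 2i by 4.67 ± 0.483 (adjusted p = 5.76e-08) and FCS by 2.08 ± 0.429 (adjusted p = 0.000555). Col4a2 followed the same order, with 2.65 to 7.39 CPM in 2i (median 6.02), 6.33 to 108 CPM in FCS (median 25.6) and 65.2 to 159 CPM in EpiSC medium (median 139). Here 1 FCS library, Setd1a WT replicate 1, lay inside the 2i range. Col4a2 rose by 2.23 ± 0.524 in FCS against 2i (adjusted p = 0.00262), by 4.48 ± 0.573 in EpiSC medium against 2i (adjusted p = 1.17e-06) and by 2.25 ± 0.518 against FCS (adjusted p = 0.00144). FCS libraries spread widely: the 4 Bod1L libraries held 87.5 to 179 CPM of Col4a1, KO and WT together, the 4 Setd1a libraries 23.7 to 206 CPM and the 4 Mll2 libraries 10.8 to 28.9 CPM.

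The 3 laminin-111 chains moved apart. Lamb1, the beta chain, was at 19.7 to 74.6 CPM in 2i (median 36.3), 176 to 376 CPM in FCS (median 224) and 292 to 522 CPM in EpiSC medium (median 421). Every FCS and EpiSC library lay above every 2i library. Lamb1 rose by 2.62 ± 0.305 in FCS against 2i (adjusted p = 1.41e-06) and by 3.30 ± 0.314 in EpiSC medium against 2i (adjusted p = 1.74e-08), while EpiSC against FCS gave 0.68 (adjusted p = 0.0619). Lamc1, the gamma chain, passed no test between media: it was at 674 CPM on average in 2i (297 to 1018), 536 in FCS (378 to 854) and 536 in EpiSC medium (380 to 821), with log2 fold changes of -0.35 (adjusted p = 0.309) for FCS and -0.34 (adjusted p = 0.248) for EpiSC medium against 2i. Lama1, the alpha chain of the early embryo, went the other way from Lamb1 in EpiSC medium. It was at 19.4 to 334 CPM in 2i (median 64.2), 64.4 to 211 CPM in FCS (median 96.2) and 12.6 to 45.1 CPM in EpiSC medium (median 20.1). It fell by 1.66 ± 0.341 in EpiSC medium against 2i (log2 fold change -1.66, adjusted p = 0.000319) and by 2.28 ± 0.348 against FCS (log2 fold change -2.28), and FCS against 2i gave 0.62 (adjusted p = 0.18). In 2i, Bod1L WT held 334 and 162 CPM of Lama1, Setd1a WT 20.2 and 19.7, and Mll2 WT 108 and 19.4, so the Bod1L libraries were above the rest and the Mll2 replicates differed.

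The factors and the receptor did not move as 1 group. In FCS against 2i, Sox7 rose by 4.43 ± 0.400 (adjusted p = 5.9e-08), against a 2i level resting on 1 to 6 reads per WT library: FCS held 0.900 to 2.58 CPM (median 2.01) and 2i 0.0288 to 0.174 CPM (median 0.105). Gata6, the earliest of these factors in the blastocyst, fell by 1.05 ± 0.325 (log2 fold change -1.05, adjusted p = 0.0183), with 0.229 to 1.80 CPM in FCS (median 0.693) against 0.886 to 2.40 in 2i (median 1.53). Sox17 fell by 1.92 ± 0.694 (log2 fold change -1.92, adjusted p = 0.0422), with 0.0600 to 0.293 CPM in FCS (2 to 10 reads) and 0.375 to 1.09 in 2i, ranges that did not overlap. The Sox17 call was lost in 9 of the 12 fits that each left out 1 WT library of FCS or 2i (adjusted p up to 0.132), and the Gata6 call in 4 (adjusted p up to 0.0815). Gata4 (log2 fold change -0.86, adjusted p = 0.159) and Pdgfra (-0.74, adjusted p = 0.372) passed no test in that comparison.

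In EpiSC medium the factors and the receptor were very unequal between lines and replicates. Sox17 ran from 0.164 to 78.1 CPM over the 6 WT libraries (median 3.29), Gata4 from 0.0819 to 28.3 CPM (median 5.48), Gata6 from 0.546 to 13.6 CPM (median 2.68) and Pdgfra from 1.11 to 59.4 CPM (median 4.11). Against 2i, Sox17 rose by 2.58 ± 0.641 (adjusted p = 0.00187), Gata6 by 1.14 ± 0.317 (adjusted p = 0.00468), Sox7 by 2.12 ± 0.410 (adjusted p = 0.000167) and Pdgfra by 1.57 ± 0.574 (adjusted p = 0.0254), and Gata4 gave 0.12 (adjusted p = 0.86). Against FCS, Sox17 rose by 4.50 ± 0.722, Gata6 by 2.18 ± 0.331 and Pdgfra by 2.31 ± 0.591 (adjusted p = 0.00336), Sox7 fell by 2.31 ± 0.343 (log2 fold change -2.31), and Gata4 gave 0.98 (adjusted p = 0.0878). Without Bod1L WT EpiSC replicate 1, Sox17 against 2i gave 1.19 (adjusted p = 0.113), Pdgfra against 2i 0.60 (adjusted p = 0.37) and Pdgfra against FCS 1.34 (adjusted p = 0.0524). The Pdgfra call against 2i was lost in 7 of the 12 fits that each left out 1 WT library of these media (adjusted p from 0.0518 to 0.37). With the number series as a covariate, which is nearly the same as EpiSC medium, only Lamb1 was called for EpiSC against 2i (3.26, adjusted p = 0.0252), and 0 members for EpiSC against FCS. This covariate is estimated from the Setd1a KO 2i replicates alone, so the fit cannot separate medium from number series.

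**Figure D2:**
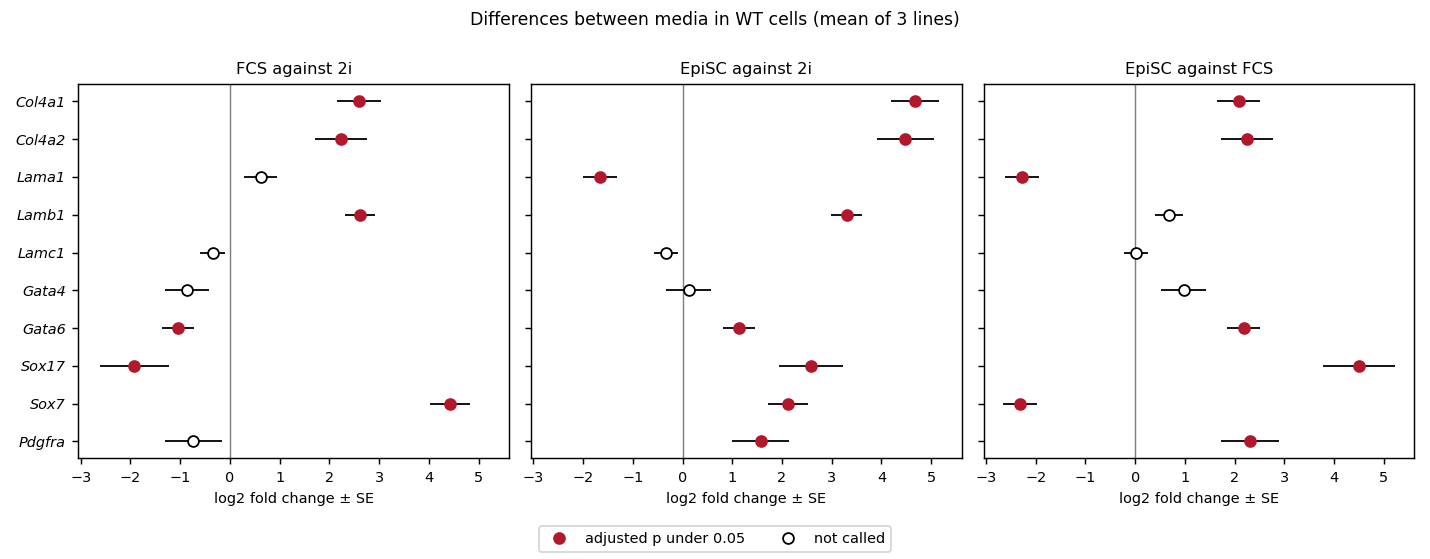
log2 fold change ± SE (edgeR) of the 10 genes between media in WT cells, averaged over the 3 lines, filled where the adjusted p was under 0.05. Col4a1 and Col4a2 are above 0 in all 3 panels, Lama1 is below 0 in both EpiSC panels, Lamc1 is near 0 in all 3, and Sox7 is at 4.43 in FCS against 2i and at -2.31 in EpiSC against FCS.

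Line by line, a comparison added after these values had been seen, Col4a1, Col4a2 and Lamb1 were called higher in EpiSC medium against 2i in each line, and no factor was called higher in all 3. Sox7 gave 0.60 in Bod1L (adjusted p = 0.541), 2.68 in Setd1a (adjusted p = 0.00752) and 3.10 in Mll2 WT cells (adjusted p = 0.00422), with 1 to 6 reads per WT library in 2i. Its Setd1a call was lost without either 2i replicate (2.58 and 2.78). Among WT cells, those of Bod1L gave 6 called members (31.8% of all genes were called), those of Setd1a 4 (12.9%) and those of Mll2 8 (38.9%). Col4a1 rose by 4.63 in Bod1L, 3.98 in Setd1a and 5.40 in Mll2 WT cells, Col4a2 by 4.38, 3.94 and 5.10, and Lamb1 by 3.88, 2.25 and 3.76 in the same order. In Setd1a WT cells these calls were lost without 2i replicate 2 (Col4a1 3.87, adjusted p = 0.0534; Col4a2 3.93, adjusted p = 0.102; Lamb1 2.29, adjusted p = 0.0688), and those of Col4a2 and Lamb1 also without 2i replicate 1 (adjusted p = 0.115 and 0.0897). The effect differed between lines for 4 of the 10 genes, where 3.37% of all genes did. These were Lama1 (adjusted p = 0.00409), Gata6 (adjusted p = 0.011), Sox17 (adjusted p = 0.024) and Gata4 (adjusted p = 0.0347).

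The Mll2 line held the highest levels of the 3 endoderm factors. In Mll2 cells in EpiSC medium Sox17 was at 69.9 and 39.3 CPM in the KO libraries and 78.1 and 68.2 CPM in the WT libraries, where no other library of the series exceeded 5.92 CPM. Gata4 was at 32.2 and 11.2 CPM in KO and 28.3 and 8.69 in WT, and Gata6 at 28.4 and 17.7 CPM in KO and 12.6 and 13.6 in WT. All 4 libraries of the line were high, KO and WT alike. In WT cells of this line Sox17 rose by 6.68 ± 1.28 against 2i (adjusted p = 0.000375), Gata6 by 2.99 ± 0.571 (adjusted p = 0.000373) and Gata4 by 2.54 (adjusted p = 0.0145). The Gata4 call was lost without Mll2 WT EpiSC replicate 1 (1.45, adjusted p = 0.225) or Mll2 WT 2i replicate 2 (2.17, adjusted p = 0.139). The same 4 libraries had the highest sums of mesendoderm and definitive endoderm markers (13 genes): 672 to 1020 CPM in KO and 422 to 1232 CPM in WT, against 70.9 to 338 CPM in the other 8 EpiSC libraries. Among these, T, a primitive streak factor, was at 80.4 and 420 CPM in KO and 113 and 636 CPM in WT, and Foxa2, a definitive endoderm and node factor, at 27.3 and 41.0 CPM in KO and 34.4 and 83.3 CPM in WT. The visceral endoderm marker sum (15 genes) was 144 to 324 CPM in KO and 83.1 to 213 CPM in WT of the same libraries, 8.62 to 16.8 CPM in the Bod1L and 21.4 to 212 CPM in the Setd1a EpiSC libraries, KO and WT together. Of this list 3 genes (Afp, Ttr and Apoa4) did not pass the filter on low counts. Of the 12 tested, 4 rose and 3 fell in Mll2 WT cells in EpiSC medium against 2i, where 38.9% of all genes were called. The part of these marker genes' cells in the factors' levels was not tested.

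In the Bod1L and Setd1a lines these 3 factors were not called higher. In Bod1L WT cells Gata4 fell to 0.906 and 0.0819 CPM in EpiSC medium, against 3.00 and 2.63 CPM in 2i (log2 fold change -2.54, adjusted p = 0.0237), Gata6 gave -1.08 (adjusted p = 0.142) and Sox17 1.93 (adjusted p = 0.176). That Gata4 call was lost without Bod1L WT EpiSC replicate 2 (-1.64, adjusted p = 0.201), 2i replicate 1 (-2.44, adjusted p = 0.0733) or 2i replicate 2 (-2.63, adjusted p = 0.0565). Lama1 fell by 4.13 ± 0.652 there (log2 fold change -4.13, adjusted p = 6.1e-05), to 15.8 and 12.6 CPM in EpiSC medium against 334 and 162 CPM in 2i, while Setd1a WT cells gave 0.91 (adjusted p = 0.33) with 45.1 and 29.8 CPM in EpiSC medium and 20.2 and 19.7 CPM in 2i. In Mll2 WT cells Lama1 gave -1.76 ± 0.592 (adjusted p = 0.0224), which was 0.06 without Mll2 WT 2i replicate 1 and -1.39 (adjusted p = 0.182) without Mll2 WT EpiSC replicate 1. Pdgfra was high in 1 replicate of each Bod1L genotype in EpiSC medium: 54.1 and 5.34 CPM in KO and 59.4 and 4.20 CPM in WT. The replicate 1 libraries of that line also held Col3a1, a fibrillar collagen of fibroblasts, at 2601 CPM in KO and 3292 CPM in WT, against 394 CPM in KO replicate 2 and 398 CPM in WT replicate 2. The fibroblast and feeder marker sum over the 15 genes was 1437 to 5694 CPM in Bod1L KO and 1414 to 7413 in Bod1L WT cells in EpiSC medium. PDGF receptor alpha is made by fibroblasts too, and in bulk RNA fewer cells of a type and less RNA per cell cannot be told apart. The part of fibroblast-type cells in the Pdgfra, Col4a1 and Col4a2 levels was not tested. Col4a1 in the Mll2 EpiSC libraries was at 283 to 323 CPM, with a fibroblast marker sum of 277 to 501 CPM, against 25.4 to 25.8 CPM in Mll2 WT libraries in 2i. Of the 15 markers 8 rose and 0 fell in Mll2 WT cells in EpiSC medium against 2i (median 3.50), where 38.9% of all genes were called. Dcn stood at 0.243 to 0.577 and Lum at 0.0875 to 0.340 CPM in the Mll2 EpiSC libraries.

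Because chains of 1 protein are built together, their levels were also compared per length within each library, where library size cancels. The ratio of Lamb1 to Lamc1 was 0.0694 ± 0.0473 in 2i, 0.412 ± 0.139 in FCS and 0.650 ± 0.126 in EpiSC medium (WT, SD, n = 6 each). It rose by 2.85 in FCS against 2i, 3.57 in EpiSC medium against 2i and 0.72 in EpiSC medium against FCS, on the log2 scale (exact permutation within lines, two-sided, adjusted p = 0.0208 each over 9 tests, from the smallest raw p these allow, 0.00926). The call for EpiSC medium against FCS was lost in 6 of the 12 fits that each left out 1 WT library (0.49 to 0.95). The ratio of Lama1 to Lamc1 was 0.119 ± 0.110 in 2i, 0.184 ± 0.0713 in FCS and 0.0456 ± 0.0342 in EpiSC medium, and fell by 2.28 on the log2 scale in EpiSC medium against FCS (log2 difference -2.28, exact permutation, adjusted p = 0.0208). EpiSC medium against 2i gave -1.23 (exact permutation, adjusted p = 0.148) and FCS against 2i 1.05 (adjusted p = 0.146). In Setd1a WT cells the ratio was 0.103 and 0.0677 in EpiSC medium, above 0.0369 and 0.0309 in 2i. All 18 WT libraries held less Lamb1 and less Lama1 than Lamc1 per length. The ratio of Col4a1 to Col4a2 moved much less: 1.43 ± 0.233 in 2i, 2.08 ± 0.674 in FCS and 1.61 ± 0.141 in EpiSC medium. It was higher in FCS than in 2i by 0.50 on the log2 scale (exact permutation, adjusted p = 0.0333), and the 12 KO libraries gave 0.28 (exact permutation, adjusted p = 0.238). That WT call was lost in 9 of the 12 fits that each left out 1 WT library (0.34 to 0.65). Col4a1 exceeded Col4a2 per length in all 36 libraries.

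**Figure D3:**
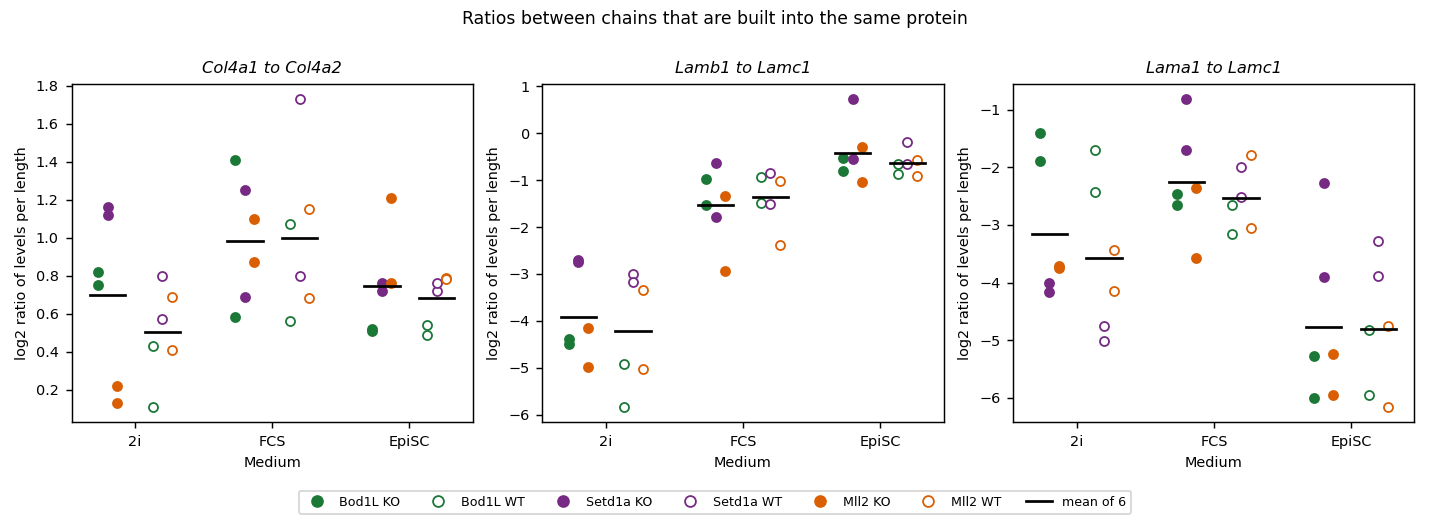
log2 ratio of levels per length of 2 chains in each library (points, filled for KO, open for WT, colour for line; bar, mean of 6), by medium. The Lamb1 to Lamc1 ratio climbs over the media, and the Col4a1 to Col4a2 ratio is above 0 in every library. The mean Lama1 to Lamc1 ratio is lowest in EpiSC medium, but in the Setd1a line the ratio is lowest in 2i.

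Over all genes 27.8% were called in FCS against 2i and 52.5% in EpiSC medium against 2i, and 5 and 12 of 20 other basement membrane components lie near those shares. Of the 20, 3 rose and 2 fell in FCS against 2i: Col18a1 (1.99 ± 0.228), the laminin chain gene Lamb3 (2.13 ± 0.635) and Hspg2, which codes for perlecan (1.22 ± 0.382), rose, and the nidogen gene Nid1 (-1.54 ± 0.348) and the laminin chain gene Lamb2 (-0.92 ± 0.211) fell. In EpiSC medium against 2i, 9 rose and 3 fell, among them the other collagen IV chains Col4a5 (3.92 ± 0.639) and Col4a6 (3.87 ± 0.704) upward and Lama3 (-1.98 ± 0.474) and Nid1 (-1.34 ± 0.346) downward. The median over the 20 genes was 0.98 for FCS and 1.12 for EpiSC medium against 2i. Of 14 genes for folding and crosslinking of collagen IV, 5 rose and 3 fell in FCS against 2i, and 8 rose and 2 fell in EpiSC medium against 2i. The peroxidase gene Pxdn, which forms the sulfilimine bonds of collagen IV, rose by 3.20 ± 0.395 in FCS and 5.04 ± 0.429 in EpiSC medium against 2i, and the lysyl oxidase-like gene Loxl2 by 3.40 ± 0.607 and 6.48 ± 0.677 in the same order. The collagen chaperone gene Serpinh1 gave -1.39 ± 0.310 in FCS against 2i and 3.22 ± 0.331 in EpiSC medium against FCS. Of 13 receptors of the membrane, 6 rose and 1 fell in FCS against 2i, and 8 rose in EpiSC medium against 2i. The collagen receptors Itga1 (3.34 ± 0.428 in FCS, 4.01 ± 0.439 in EpiSC medium) and Ddr1 (2.85 ± 0.423 and 3.76 ± 0.440) rose in both against 2i.

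Other genes of primitive endoderm moved in both directions. The shares of all genes called were 27.8% in FCS and 52.5% in EpiSC medium, each against 2i. Of 15 other markers, 6 rose and 4 fell in FCS against 2i, with the endocytic receptor genes Lrp2 (2.48 ± 0.332) and Cubn (2.43 ± 0.565) up and the proteoglycan gene Srgn (-3.92 ± 0.418) down. In EpiSC medium against 2i, 10 rose and 5 fell: Rspo3 (7.23 ± 0.823), Foxa2 (5.39 ± 0.765) and the adaptor gene Dab2 (4.05 ± 0.613) were up, and Srgn (-4.72 ± 0.463) was down. The lists share genes: Foxa2 is also on the mesendoderm and definitive endoderm list, and Cubn on the visceral endoderm list. Of 12 tested visceral endoderm markers 4 rose and 5 fell in EpiSC medium against 2i, and the factor Hnf4a (-5.59 ± 1.21) was among those that fell. Of 12 parietal endoderm markers, Lama1 among them, 6 rose and 4 fell, with the parathyroid hormone receptor gene Pth1r at 5.64 ± 0.555 and Plat, which codes for tissue plasminogen activator, at 4.56 ± 0.556. Of 13 genes of FGF and PDGF signalling, 6 rose and 4 fell: the receptor gene Fgfr1 rose by 1.32 ± 0.159, and the ligand genes Fgf4 (-2.12 ± 0.599) and Pdgfa (-2.20 ± 0.202) fell. Of the fibroblast and feeder markers, 7 of 15 were higher and 1 lower in FCS against 2i (median 3.43), and 13 of 15 were higher in EpiSC medium against 2i (median 6.51, Col3a1 12.1 ± 1.22). Among the matrix members Col4a1, Col4a2 and Lamb1 were called higher in both comparisons, and Lama1 and Lamc1 in neither.

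In Setd1a KO cells, where the gene of a histone H3 lysine 4 methyltransferase is targeted, the collagen IV chains and Lama1 were higher. Averaged over the 3 media, 3 of the 10 genes were called, all higher, where 8.85% of all genes were called and 3.29% were called higher. Col4a1 gave a log2 fold change of 1.77 ± 0.426 (adjusted p = 0.00979), Col4a2 1.68 ± 0.510 (adjusted p = 0.0401) and Lama1 1.25 ± 0.337 (adjusted p = 0.0204). With the number series as covariate in edgeR the Col4a2 call was lost (1.59, adjusted p = 0.0936), and those of Col4a1 and Lama1 stayed. Only Setd1a KO 2i held libraries of both series, so this fit rests on that pair and cannot test for a series effect. Leaving out Setd1a KO 2i replicate 1 gave 1.61 for Col4a2. Fitted on the line alone, Col4a1 (adjusted p = 0.0771) and Col4a2 (adjusted p = 0.135) lost their calls and Lama1 kept its own (adjusted p = 0.0265). The mitochondrial share of counts was above both WT libraries in each KO library of 2i and EpiSC medium but not of FCS: it was 7.32% and 7.71% in KO and 4.11% and 3.43% in WT in 2i, 4.33% and 4.25% in KO and 5.09% and 3.60% in WT in FCS, and 6.27% and 3.89% in KO and 3.42% and 1.98% in WT in EpiSC medium. Its part in the result was not tested. The members' median was 0.76, against 0.07 over all tested genes. In each medium alone no member was called by edgeR (unadjusted p under 0.05 for 3 members in 2i, 0 in FCS and 3 in EpiSC medium), on backgrounds of 1.69%, 0.762% and 1.54%, and DESeq2 called 1, 0 and 0. With the KO and WT libraries of the same number as a block, 6 were called on average, 5 in 2i and 3 in EpiSC medium. In this line the replicate differences of KO and WT correlated by 0.166 in 2i, 0.236 in FCS and 0.707 in EpiSC medium. Across media, where no pairing is assumed, its WT values were 0.139 to 0.238. The block therefore has little ground in 2i and FCS. In 2i, KO replicate 1 was also in the higher number series and WT replicate 1 in the lower. The 6 on average were Col4a1 (1.56), Col4a2 (1.51), Lama1 (1.16), Lamb1 (0.66, adjusted p = 0.00324), Gata6 (0.78, adjusted p = 0.0078) and Pdgfra (0.99, adjusted p = 0.0041).

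In 2i the collagen IV chains of KO and WT did not overlap. Col4a1 was at 79.0 and 53.5 CPM in Setd1a KO 2i libraries, against 11.9 and 9.93 CPM in WT (log2 fold change 2.60, adjusted p = 0.0966), and Col4a2 at 31.4 and 21.9 CPM against 6.08 and 5.92 CPM. No other 2i library of the series exceeded 22.8 CPM of Col4a1. Lama1 was at 51.1 and 54.4 CPM in KO and 20.2 and 19.7 CPM in WT, Lamb1 at 143 and 139 CPM in KO and 71.1 and 74.6 in WT, and Pdgfra at 6.90 and 6.16 CPM in KO and 2.72 and 2.65 in WT. Both KO libraries lay above both WT libraries for 7 of the 10 genes (these 5, Lamc1 and Gata6), where 33.3% of all genes did so. The fibroblast and feeder marker sum was 69.1 to 73.6 CPM in KO and 21.5 to 24.7 CPM in WT in 2i, where 0 of the 15 markers were called by edgeR (0 had an unadjusted p under 0.05) and their median log2 fold change was 1.39. Of these, Dcn was at 0 to 0.0413 and Lum at 0 to 0.123 CPM in KO and both at 0 in WT. The part of such cells in the 2i values was not tested.

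In FCS the replicates differed more than the genotypes for Col4a1 and Col4a2. Col4a1 was at 33.9 and 206 CPM in KO and 23.7 and 92.7 CPM in WT, and Col4a2 at 12.6 and 113 CPM in KO and 6.33 and 47.2 CPM in WT, with replicate 2 high in both genotypes. Lama1 was at 223 and 165 CPM in KO, above the 109 and 83.4 CPM in WT. Both KO libraries lay above both WT libraries for 3 genes (Lama1, Gata6 and Pdgfra), on a background of 18.3%. In EpiSC medium KO replicate 1 stood far above the rest: it held 930 CPM of Col4a1 and KO replicate 2 170, against 222 and 124 CPM in WT. The same library had 501 CPM of Col4a2, 1264 of Lamb1 and 151 of Lama1, and KO replicate 2 had 89.2, 412 and 38.6 CPM, against 120 and 65.2, 401 and 292, and 45.1 and 29.8 CPM in WT. Its fibroblast and feeder marker sum was 4917 CPM, with 226 CPM in KO replicate 2 and 262 to 1557 CPM in WT, and its Dcn level 79.7 CPM against 0.154 to 15.0 CPM in WT. The part of such cells in the result was not tested. In EpiSC medium both KO libraries lay above both WT libraries for 5 genes (Lamb1, Lamc1, Gata4, Gata6 and Sox7), on a background of 18.8%.

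Without Setd1a KO EpiSC replicate 1 no member was called on average: Col4a1 gave 1.20 (adjusted p = 0.0823), Col4a2 1.11 (adjusted p = 0.235) and Lama1 0.82 (adjusted p = 0.155). Col4a1 was also lost without KO FCS replicate 2 (1.18, adjusted p = 0.088), Col4a2 in 8 of 12 such fits (0.93 to 2.37) and Lama1 in 5. Matched by medium and number, a matching with little ground in 2i and FCS, KO exceeded WT in 6 of 6 pairs for Col4a1, Col4a2, Lama1, Gata6 and Pdgfra, where 12.4% of all genes did. Lamb1 and Lamc1 did so in 5 of 6 pairs and Gata4, Sox17 and Sox7 in 4. Gata6 was at 1.89 and 1.32 CPM in KO and 0.886 and 1.01 in WT in 2i, 1.18 and 1.04 in KO and 0.655 and 0.736 in WT in FCS, and 6.19 and 4.20 in KO and 2.59 and 2.77 in WT in EpiSC medium. Both KO libraries were above both WT libraries for Gata6 in each medium, and its average was 0.79 ± 0.318 (adjusted p = 0.129). In a single medium 33.3% (2i), 18.3% (FCS) and 18.8% (EpiSC medium) of all genes were so placed. The share so placed in all 3 media was not counted.

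**Figure D4:**
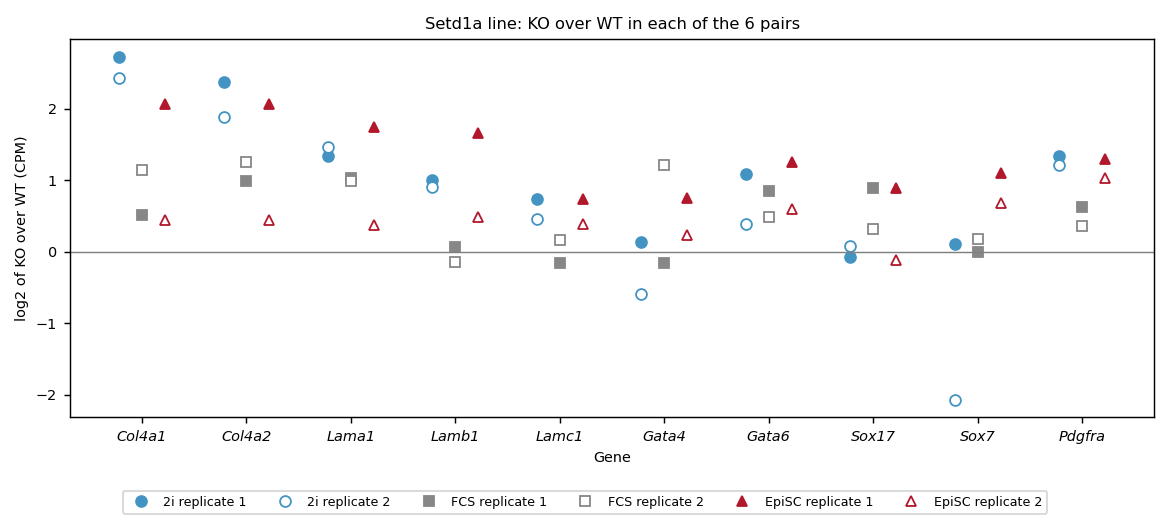
log2 of the KO level over the WT level (CPM) for each of the 6 Setd1a pairs of the same medium and replicate number. All 6 points are above 0 for Col4a1, Col4a2, Lama1, Gata6 and Pdgfra, and 1 Sox7 point in 2i, which rests on 1 read in the KO library, is at -2.07.

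Around these genes in Setd1a KO cells, averaged over the 3 media, 8.85% of all genes were called and 3.29% were called higher. Of 14 folding and crosslinking genes 3 rose (median over the list 0.40): Plod2 (1.15 ± 0.214, adjusted p = 0.000956) and Plod3 (0.53 ± 0.147, adjusted p = 0.0247), which code for lysyl hydroxylases, and P4ha2 (1.39 ± 0.272, adjusted p = 0.00159), which codes for a prolyl hydroxylase. P4ha2 was at 148 and 105 CPM in Setd1a KO 2i cells and 23.9 and 23.1 CPM in WT (log2 fold change 2.43, adjusted p = 0.00737). None of 20 other basement membrane components was called by edgeR (6 had an unadjusted p under 0.05; median 0.86), nor any of 15 other primitive endoderm markers (2; median 0.24), 12 visceral endoderm markers (0; median 0.21), 13 FGF and PDGF genes (5; median 0.28) or 15 fibroblast and feeder markers (2; median 1.13). Of 12 parietal markers the single call was Lama1 itself, and of 13 receptors it was the collagen receptor gene Itga2 (3.23 ± 0.823, adjusted p = 0.015). Among 8 endothelial markers the angiopoietin receptor genes Tie1 (2.49 ± 0.531, adjusted p = 0.00356) and Tek (1.14 ± 0.287, adjusted p = 0.0131) rose.

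In Mll2 KO cells the single called member was Sox7, an F-group SOX factor of primitive endoderm and endothelium. Averaged over the media 1 of 10 genes was called, where 0.694% of all genes were called and 0.0596% were called higher. Sox7 was at 0.180 and 0.194 CPM in KO and 0.0288 and 0.0308 CPM in WT in 2i, 4.29 and 4.43 in KO and 2.58 and 2.09 in WT in FCS, and 0.791 and 1.15 in KO and 0.247 and 0.321 in WT in EpiSC medium. KO exceeded WT in all 6 pairs, as for 3.97% of all genes, with a log2 fold change of 1.72 ± 0.383 (adjusted p = 0.0319). In 2i this rested on 12 reads in KO and 2 in WT, a ratio of 6.26 with a 95% interval of 1.39 to 57.6 for counting error alone. The call was lost in 11 of 12 fits that each left out 1 library of the line (1.62 to 1.80, adjusted p up to 0.115). Gata6 was at 7.81 and 4.20 CPM in Mll2 KO 2i cells and 1.99 and 1.30 in WT (1.87, adjusted p = 0.192), and its average was 0.92 ± 0.323 (adjusted p = 0.316). With the block of pairs Gata6 was called in 2i (1.84, adjusted p = 0.0017) and on average (adjusted p = 0.0107). In each medium alone edgeR called no member (unadjusted p under 0.05 for 2 members in 2i, 0 in FCS and 1 in EpiSC medium), on backgrounds of 0.464%, 0% and 0%, and DESeq2 called 1, 0 and 0. Of the lists above, the called genes numbered 1, the visceral endoderm and retinol carrier gene Rbp4 (-2.72 ± 0.481, adjusted p = 0.00545).

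In Bod1L KO cells, where the gene of a SETD1A-associated protein is targeted, no member was called by edgeR on average or in any medium, none had an unadjusted p under 0.05, and DESeq2 called 0. The backgrounds were 2.03% on average, 0.374% in 2i, 0.191% in FCS and 0.438% in EpiSC medium. The averaged log2 fold changes ran from -0.23 (Pdgfra) to 0.48 (Col4a1), with a median of 0.08 against 0.05 over all genes. In 2i Col4a1 was at 20.0 and 22.8 CPM in KO and 8.99 and 9.08 CPM in WT (log2 fold change 1.25, adjusted p = 1). In FCS and EpiSC medium the Col4a1 ranges of KO and WT overlapped.

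Whether the knockouts differed from each other was tested directly. The averaged effect differed between lines for 0 of 10 genes by edgeR (3 had an unadjusted p under 0.05, DESeq2 called 0), where 2.03% of all genes were called; Col4a1 had an adjusted p of 0.273, Lama1 of 0.245 and Sox7 of 0.121. Within a line the effect differed between media for 0 of 10 in each line (0 with an unadjusted p under 0.05, DESeq2 0), on backgrounds of 0% for Bod1L, 0% for Setd1a and 0.00426% for Mll2. The WT cells of the lines, averaged over media, differed in 1 gene, Sox7 (adjusted p = 0.0161), where 14.7% of all genes did, and DESeq2 called 3. The Sox7 difference was lost without Setd1a WT 2i replicate 2 (adjusted p = 0.062) or Setd1a WT EpiSC replicate 1 (adjusted p = 0.0581).

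**Figure D5:**
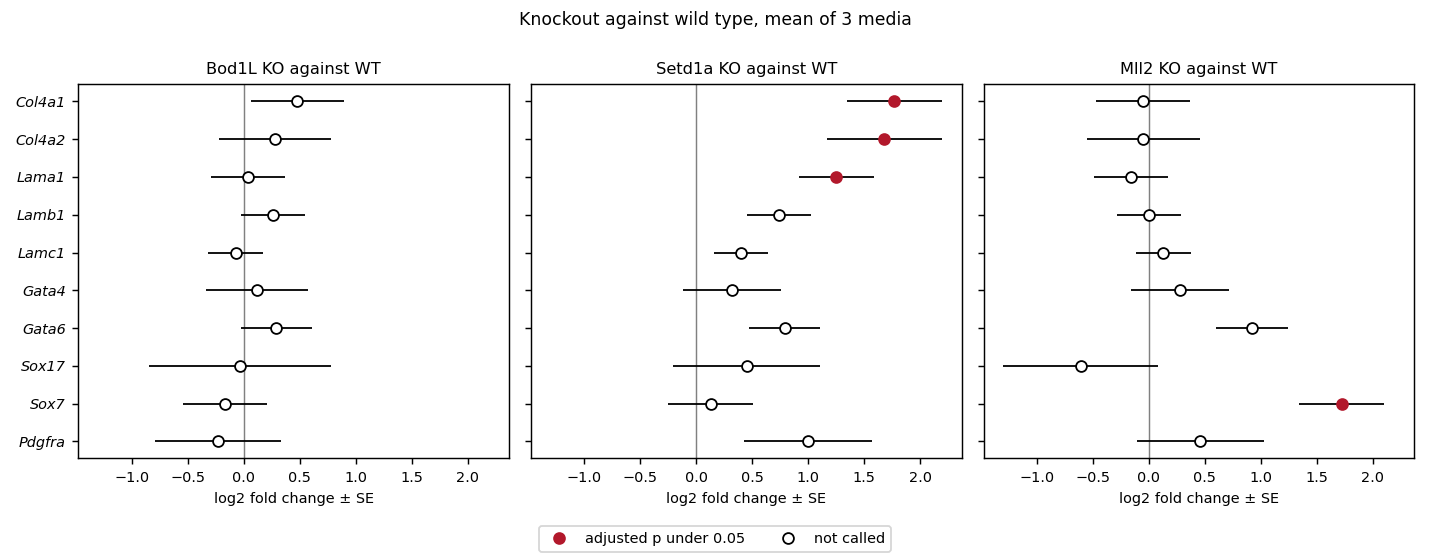
log2 fold change ± SE (edgeR) of KO against WT, averaged over the 3 media, for the 10 genes in each line, filled where the adjusted p was under 0.05. Col4a1, Col4a2 and Lama1 are filled for Setd1a and Sox7 for Mll2, and no point is filled for Bod1L.

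Across libraries Col4a1 and Col4a2 ran together more closely than any other pair of members quoted here. Their log2 CPM correlated by r = 0.99 over the 36 libraries and by 0.97 over the 18 differences between replicates of a group, in which medium, line and genotype cancel. Col4a1 and Lamb1 had 0.84 over the 36 libraries and 0.36 over the replicate differences. Gata4 and Gata6 had 0.71 and 0.57, Gata6 and Sox17 0.75 and 0.30, and Sox17 and Pdgfra 0.54 and 0.63. These are descriptions over libraries that share media and number series. Other pairs ran against each other over the 36 libraries: Lama1 had -0.42 with Col4a1 and -0.39 with Lamb1, and Sox7 had -0.42 with Pdgfra. Over the replicate differences these pairs had 0.41, 0.5 and -0.12 in the same order. The mean patterns that follow, taken over the 36 libraries, therefore mix genes that ran apart there. Outside the members, the mean pattern of the 5 matrix genes over the 36 libraries was most like that of Hspg2 (perlecan, r = 0.89), followed by the cadherin-family gene Fat1 (0.863), Arel1 (0.856), Pik3c2a (0.848), Lcat (0.846), Slc12a4 (0.841) and Slc9a7 (0.832). The mean pattern of the factors and receptor was most like that of Cacna2d3 (0.858), Gm43537 (0.858), Ttc6 (0.854), Prss12 (0.844), Lhx1os (0.842), the endoderm pioneer factor gene Foxa1 (0.835), Ermn (0.829) and Gm32772 (0.823). Except for Foxa1, Ttc6 and Prss12, which reached 46.7, 10.8 and 23.5 CPM, these had at most 5.60 CPM in any library.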

How the data were processed

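Per the file headers, the authors counted reads per gene with featureCounts 1.5.2 (strand setting 2, mapping quality of at least 1), and the deposited values are raw counts on Ensembl 87 models. The submitters' processing notes name GSNAP 2017-03-17 and GRCm38 (mm10). Trimming is not given in the sources used here.

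All 36 libraries were fitted with edgeR 4.0.16 (R 4.3.3, TMM, quasi-likelihood test after filterByExpr at its minimum count of 10, Benjamini-Hochberg adjustment, threshold 0.05) as 18 groups with 18 residual degrees of freedom. The 92 spike-ins (0 counts) were left out. Symbols came from GENCODE M21 (345 genes without one). Averages weigh media, or lines, equally. CPM uses TMM-scaled library sizes, and per-length values (RPKM) the deposited gene lengths. Correlations used log2 CPM with a prior count of 2. The test was tried on simulated counts.

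Replicate differences of KO and WT libraries of the same number correlated by 0.166 to 0.737 in the 9 line and medium pairs, so the numbers were taken as pairs, inferred from these data, for a second fit with a block (9 residual degrees of freedom). Across media they correlated by -0.136 to 0.238. The Setd1a values of KO and WT in 2i (0.166) and FCS (0.236) lay within that range, so the pairing has little ground there. Other settings were upper quartile factors, no count filter, the series of library numbers as covariate (17 residual degrees of freedom), each line alone, DESeq2 1.42.0 and leaving out each library.

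The text names the 10 members, the targeted genes, at most the 4 called genes of lowest adjusted p per list and direction, markers near 0, and the 8 genes of most similar pattern; a few genes this would name are not reported here. Members and lists were chosen with earlier results of these data known.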

Additional observations from a re-analysis of the deposited data

Results flagged for a closer look

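For 4 of the 10 genes the effect of EpiSC medium against 2i in WT cells differed between the 3 lines by the test of that difference (edgeR, Benjamini-Hochberg over all genes), a comparison added after the values had been seen. Lama1 (adjusted p = 0.00409) had log2 fold changes of -4.13 in Bod1L, 0.91 in Setd1a and -1.76 in Mll2 WT cells. Gata6 (adjusted p = 0.011) had -1.08, 1.49 and 2.99 in the same order, Sox17 (adjusted p = 0.024) 1.93, -0.88 and 6.68, and Gata4 (adjusted p = 0.0347) -2.54, 0.35 and 2.54. The difference was lost in 0 of the 12 fits that each left out 1 library for Lama1, in 1 for Gata6 (without Bod1L WT EpiSC replicate 2, adjusted p = 0.0568), in 6 for Sox17 and in 7 for Gata4.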

How the results depend on the processing

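Effects resting on few reads (Sox7 and Sox17 below 1 CPM) and on groups of 2 libraries limit these results, and p-values with 2 against 2 lean on the spread shared over 18 groups. Counts of members called moved by over 1.5 times as follows. Without a filter on low counts they were 1 for Bod1L in 2i, 4 for Setd1a in 2i and 4 in EpiSC medium, 1 in FCS, 5 for Setd1a on average, 3 for the knockout effect between lines, 8 for WT lines and 7 for EpiSC against 2i between lines. With the library number series as covariate they were 1 for EpiSC against 2i, 0 for EpiSC against FCS, and 2, 0 and 3 for EpiSC against 2i in the Bod1L, Setd1a and Mll2 lines. With the replicate block of KO and WT pairs Setd1a KO against WT had 6 on average, 5 in 2i and 3 in EpiSC medium, and Mll2 KO against WT 2 on average and 1 in 2i, and the block moved no other count by over 1.5 times. Across media the same numbers correlated by 0.139 to 0.238 in the 3 pairs of the Setd1a line and by -0.136 to 0.0677 in the 6 of Bod1L and Mll2, and the replicate block of numbers within lines gave 6 calls for FCS against 2i and 8 each for EpiSC against 2i and against FCS. On each line alone they were 1 for Setd1a and 0 for Mll2 on average, with 6 residual degrees of freedom in place of 18. DESeq2 gave 1 for Setd1a in 2i, 1 for Mll2 in 2i and 3 for WT lines. The ratio of Col4a1 to Col4a2, FCS against 2i, was 0.28 in the 12 KO libraries. The Setd1a average of Sox7 was -0.29 with the library number series as covariate, and -0.27 without Setd1a KO 2i replicate 1. That covariate was estimated from the Setd1a KO 2i replicates alone, the only group holding both series. In all, 110 counts stayed within 1.5 times under such settings and 23 did not. Of the gene values 251 kept their side and direction, 33 lost a call, 6 gained one and 1 turned, and of the ratios 17 kept theirs and 1 lost its call.

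Leaving out 1 library gave 6 to 8 calls for EpiSC against 2i, 6 to 8 for EpiSC against FCS, 4 to 6 for FCS against 2i, 4 to 6, 0 to 4 and 6 to 8 for EpiSC against 2i in the Bod1L, Setd1a and Mll2 lines, 2 to 4 for its difference between lines, 0 to 4 for Setd1a on average, 0 to 1 for Mll2 on average and in 2i, 0 to 1 for the knockout effect between lines and 0 to 3 for WT lines. The Col4a1 to Col4a2 ratio ran from 0.34 to 0.65 for FCS against 2i, 0.13 to 0.23 for EpiSC against 2i and -0.47 to -0.16 for EpiSC against FCS, and Lamb1 to Lamc1 from 0.49 to 0.95 for EpiSC against FCS. Over all such ratio fits 91 kept their side, 15 lost a call and 2 gained one. Setd1a averages that turned were Gata4 (-0.03 to 0.54), Sox17 (-0.13 to 0.76) and Sox7 (-0.27 to 0.36), and Lama1 for EpiSC against 2i in Mll2 WT cells ran from -2.48 to 0.06. Of the averaged effects that were not called, 7 of 10 for Bod1L, 6 of 9 for Mll2 and 3 of 7 for Setd1a changed sign under at least 1 alternative.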

Other observations

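Endothelial markers, which hold the related gene Sox18 beside Pecam1, Tie1 and Tek, were higher in the Setd1a line than in the others in 2i: the 8 genes summed to 497 to 576 CPM in Setd1a KO and 341 to 352 CPM in Setd1a WT, against 110 to 157 CPM in the KO and 122 to 160 CPM in the WT libraries of the Bod1L and Mll2 lines. Pecam1, which embryonic stem cells also express, made up most of it, with 375 and 317 CPM in Setd1a KO and 315 and 302 CPM in Setd1a WT.

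Mll2 WT 2i replicate 2 stood below its partner in several matrix genes. It held 297 CPM of Lamc1, where replicate 1 held 1018, and 19.4 CPM of Lama1, where replicate 1 held 108. Hnf4a, a visceral endoderm factor, was uneven between Mll2 libraries in 2i, with 124 and 11.3 CPM in KO and 82.1 and 0.956 CPM in WT.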
